A study of Brassica napus with 12 samples.

Results

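FATTY ACID ELONGATION 1 (FAE1) was followed in immature seeds of rapeseed, Brassica napus, through its copies on chromosomes A8 (BnaA08g11130D) and C3 (BnaC03g65980D). These 2 genes, chosen by their IDs, were both listed in all 12 deposited libraries, among 50338 genes listed in at least 1 library. The libraries represent 4 inbred lines, A28, R8Q10, SW and YH25005, with 3 libraries per line, all from seed collected 24 days after pollination from bagged, selfed flowers of field-grown plants. The series compares high and low linolenic acid lines; which line belongs to which type is not stated in the labels, and neither is any erucic acid content. The labels call the tissue seeds while the extraction protocol speaks of embryos, and no marker of embryo, seed coat or endosperm could be checked, because 0 of 101 marker and pathway symbols could be paired with an ID. Nothing in the labels says that replicates came from separate plants, so p-values measure the spread between these libraries, which may be technical.

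FAE1 encodes the 3-ketoacyl-CoA synthase that carries out the condensing step of fatty acid elongation in the developing embryo. It adds carbons to oleoyl-CoA and gives eicosenoic and then erucic acid, the very long chain fatty acids of traditional rapeseed oil. The transcript is known to accumulate while storage oil is being laid down, and the loss of function of both copies underlies low-erucic (canola quality) varieties. Because rapeseed combines an A and a C genome, the copies are homoeologues, near-identical genes inherited from different parent species. The sources used here do not say how reads that match both copies were counted, so levels of the single copies carry that uncertainty, while their sum does not depend on how such reads were divided between the copies.

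Library totals ran from 30150457 to 40762254 counts. The FAE1 counts themselves spanned a wide range, from 96 in A28 replicate 3 (62 for the A8 copy and 34 for the C3 copy) to 23973 in YH25005 replicate 1. For the sum of both copies, counting error was therefore small except in A28 replicate 3.

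The A8 copy was most abundant and most even in YH25005. In A28 it stood at 5.61, 31.2 and 1.12 FPKM (length- and depth-scaled fragment counts, as deposited) in replicates 1, 2 and 3. R8Q10 showed 28.4, 105 and 22.1 FPKM, and SW showed 76.6, 45.2 and 7.14 FPKM. The YH25005 libraries held 153, 153 and 156 FPKM, so all of them lay above each of the other 9 libraries, while A28, R8Q10 and SW overlapped one another.

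By line mean, the C3 copy was likewise lowest in A28 and highest in YH25005, with R8Q10 and SW in between. It stood at 5.44, 35 and 0.653 FPKM in A28 replicates 1, 2 and 3. The values were 23.4, 97.6 and 19.3 FPKM in R8Q10, and 84.5, 46.9 and 8.55 FPKM in SW. YH25005 held 214, 130 and 127 FPKM, again above every library of the other lines, but with replicate 1 well above replicates 2 and 3. A28, R8Q10 and SW again overlapped one another. In line means, the A8 copy averaged 12.7 ± 16.3 FPKM for A28, 51.8 ± 46.1 for R8Q10, 43.0 ± 34.8 for SW and 154 ± 1.88 for YH25005 (SD, n = 3 each), and the C3 copy averaged 13.7 ± 18.6, 46.8 ± 44.1, 46.7 ± 38.0 and 157 ± 49.6 FPKM in the same order of lines.

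**Figure D1:**
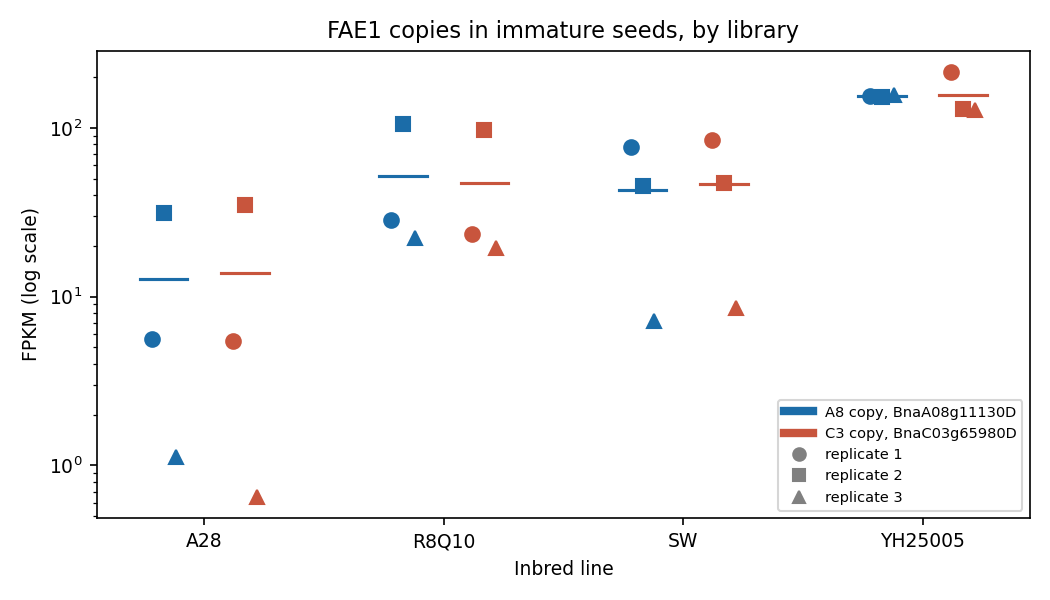
FPKM of the A8 copy (blue) and the C3 copy (red) on a log axis in each of 12 libraries of 4 inbred lines; symbols mark the replicate and short bars the line mean. Both copies lie at 127 FPKM or above in all YH25005 libraries, and in A28 they run from 1.12 and 0.653 FPKM in replicate 3 to 31.2 and 35 FPKM in replicate 2.

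The place of FAE1 among all transcripts moved accordingly. By FPKM the A8 copy ranked 517th, 527th and 479th of 46839 listed genes in YH25005, near the top of the list. In A28 replicate 3 it ranked 39499th of 47207, with 16.3% of the listed genes below it. In A28 replicate 2 of the same line and age, 88.7% of the genes lay below it. The C3 copy had 10.7% of the genes below it in A28 replicate 3 and 89.9% in A28 replicate 2.

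Replicates of the same line differed widely in FAE1, except in YH25005. CPM, the counts scaled to library size with TMM factors, a correction for differences in library composition, were summed over the copies. The sum was 16.9, 102 and 3.05 CPM in A28, a 33.4-fold range between the highest and the lowest library. It was 80.6, 304 and 66.7 CPM in R8Q10 (4.56-fold), and 260, 160 and 26.4 CPM in SW (9.87-fold). In YH25005 the sum was 933, 579 and 738 CPM, a 1.61-fold range. The lowest library was replicate 3 in A28, R8Q10 and SW and replicate 2 in YH25005.

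This spread was set beside that of 6592 genes averaging at least 32 CPM over the 12 libraries. The SD of log2 CPM of the FAE1 sum between replicates was 2.52 for A28, 1.19 for R8Q10, 1.74 for SW and 0.34 for YH25005. For the median gene it was 0.45 (A28), 0.30 (R8Q10), 0.29 (SW) and 0.22 (YH25005). Of these genes, 1.12% were at least as variable as FAE1 among A28 replicates, 2.90% among those of R8Q10, 1.06% among those of SW and 24.4% among those of YH25005. Within A28, R8Q10 and SW, FAE1 was therefore more variable than most genes averaging at least 32 CPM, a set with no upper limit on abundance, and it lay nearer the middle in YH25005.

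Whether the lines differed was tested with edgeR's quasi-likelihood F test on 43708 genes listed in all libraries, adjusted by Benjamini and Hochberg's method and called at 0.05. The A8 copy passed (adjusted p = 0.0331), the C3 copy did not (adjusted p = 0.0504), and the sum of both copies passed (adjusted p = 0.0416). Of all genes tested 46.2% passed, so a call on this test is common in these data. An exact permutation test of log2 CPM over all partitions of the libraries into 4 groups of 3, added after seeing the data, gave p = 0.0267 for the A8 copy, 0.0319 for the C3 copy and 0.0284 for the sum, without adjustment over genes. The edgeR call was close to its threshold: without YH25005 replicate 3 the adjusted p of the A8 copy was 0.0834, and without A28 replicate 2 it was 0.00571. For the A8 copy and the sum it was lost in 7 of the 12 fits that each left out 1 library, and for the C3 copy it was gained in 3.

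Of the 6 pairs of lines, 1 passed the test for FAE1, A28 against YH25005. The A8 copy averaged 20.2 ± 25.8 CPM in A28 and 382 ± 52.3 CPM in YH25005 (SD, n = 3 each), a log2 fold change of -4.24 ± 1.16 (SE), or 18.9-fold lower in A28 (edgeR quasi-likelihood test, adjusted p = 0.0198). Its 95% interval ran from -6.79 to -1.69. The C3 copy averaged 20.5 ± 27.7 CPM in A28 and 368 ± 143 CPM in YH25005, a log2 fold change of -4.17 ± 1.26 (SE; edgeR, adjusted p = 0.0307). Both copies fell in A28 relative to YH25005 by nearly the same amount, and the sum gave -4.21 ± 1.21 (edgeR, adjusted p = 0.025).

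In that pair 27.2% of all genes passed and 12.7% were lower in A28, and the median gene had a log2 fold change of 0.06. A log2 change at least as large as that of the A8 copy was seen in 3.71% of the genes, and as that of the C3 copy in 3.83%. The call depended on single libraries. Of the 12 fits that each left out 1 library, 11 kept it for the A8 copy. For the C3 copy 9 kept it, and for the sum 9. The adjusted p was 0.0687 for the A8 copy and 0.0956 for the C3 copy without A28 replicate 1 (edgeR). For the C3 copy it was 0.0784 without YH25005 replicate 1 and 0.0597 without YH25005 replicate 3 (edgeR). The sum was at 0.0822, 0.0605 and 0.0537 without the same 3 libraries (edgeR). As a difference of mean log2 CPM, which gives the low A28 libraries more weight, the values were -5.31 for the A8 copy and -5.51 for the C3 copy. The libraries did not overlap, and the exact permutation test of 3 against 3 gave p = 0.1, the smallest it allows.

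R8Q10 and SW also lay below YH25005 in every library, without passing the test. For R8Q10 the A8 copy had a log2 fold change against YH25005 of -2.23 (95% interval -4.56 to 0.11; edgeR, adjusted p = 0.152) and the C3 copy -2.41 (-4.98 to 0.15; adjusted p = 0.157), where 23.4% of all genes passed. For SW the A8 copy had -2.37 (-4.72 to -0.02; adjusted p = 0.126) and the C3 copy -2.29 (-4.84 to 0.26; adjusted p = 0.172), where 26.7% of all genes passed. These comparisons depended on which libraries entered the fit. With only the 6 libraries compared in the fit, the adjusted p of the sum was 0.0304 for R8Q10 against YH25005 and 0.0472 for SW against YH25005 (edgeR), while A28 against YH25005 then gave 0.0529.

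Among A28, R8Q10 and SW no pair passed for either copy. The A8 copy had a log2 fold change of -2.02 for A28 against R8Q10 (95% interval -4.34 to 0.31; edgeR, adjusted p = 0.212) and -1.87 for A28 against SW (-4.18 to 0.44; adjusted p = 0.288). The C3 copy had -1.75 (-4.27 to 0.76; adjusted p = 0.319) for A28 against R8Q10 and -1.88 (-4.40 to 0.64; adjusted p = 0.333) for A28 against SW. The background was 21.7% of genes called for A28 against R8Q10 and 15.4% for A28 against SW. Without A28 replicate 2, the library of that line with the most FAE1, the sum gave -3.94 against R8Q10 (edgeR, adjusted p = 0.0278) and -3.93 against SW (edgeR, adjusted p = 0.0314). Without R8Q10 replicate 2 it was -0.89 against R8Q10 (edgeR, adjusted p = 0.65), and without SW replicate 1 it was -1.20 against SW (edgeR, adjusted p = 0.596).

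R8Q10 and SW were the closest lines. The sum averaged 151 ± 133 CPM in R8Q10 and 149 ± 117 CPM in SW (SD, n = 3 each), a log2 fold change of 0.02 (95% interval -2.32 to 2.35; edgeR, adjusted p = 0.995), in a pair where 23.6% of all genes passed. The interval is too wide for these libraries to show that the lines have equal levels. In the order of line means by the sum, A28 was lowest, SW and R8Q10 followed with near-equal values, and YH25005 was highest; neighbours in that order did not differ beyond their spread by the test.

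**Figure D2:**
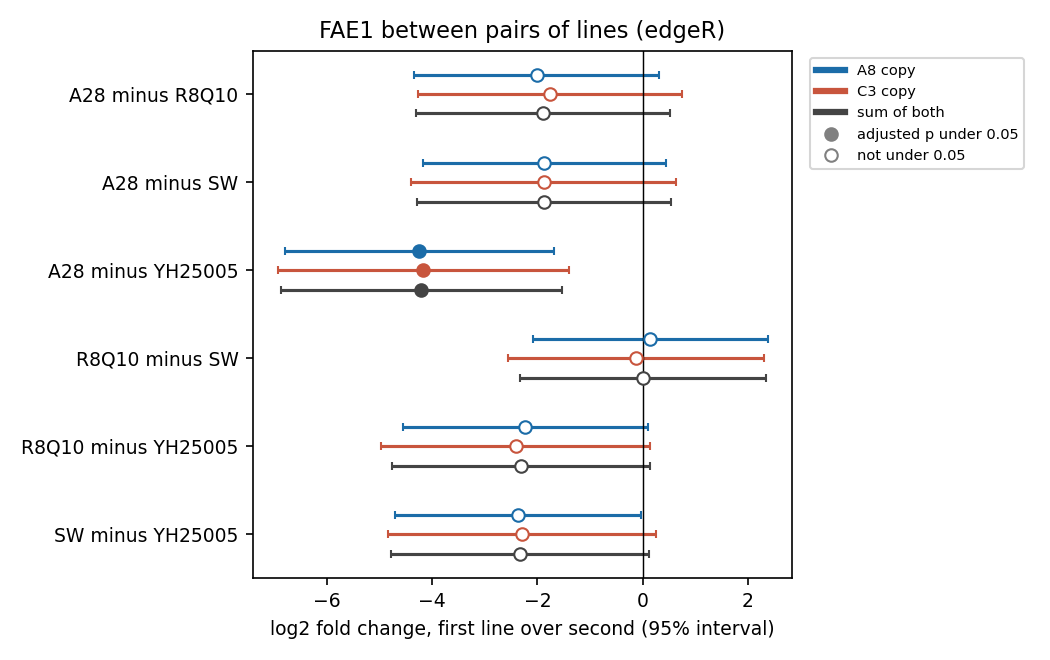
Log2 fold change of the A8 copy, the C3 copy and their sum for 6 pairs of lines, the first line over the second, with 95% intervals from edgeR; filled circles have an adjusted p under 0.05. The filled circles are those of A28 minus YH25005, at -4.24, -4.17 and -4.21.

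The copies contributed nearly equally to FAE1 in every line. Per unit length, the A8 copy stood at 0.717 to 1.71 times the C3 copy over the 12 libraries, the extremes being YH25005 replicate 1 and A28 replicate 3. The ratio of count to FPKM gave the A8 copy a length 1.07 times that of the C3 copy. The A share, meaning the A8 copy's percent of the counts of both copies, was 55.2% ± 8.31 for A28, 54.9% ± 1.48 for R8Q10, 49.0% ± 1.79 for SW and 51.9% ± 7.49 for YH25005 (SD, n = 3 each). An exact permutation test over all partitions of the libraries, one-sided on the between-line sum of squares, did not separate the lines (p = 0.543).

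Single libraries showed where the balance moved. In A28 the A share was 52.4%, 48.7% and 64.6% in replicates 1, 2 and 3, with a 95% Wilson interval of 54.6% to 73.4% around the last, which held 96 counts. Intervals were also wide for A28 replicate 1 (48.8% to 55.9%, 760 counts) and SW replicate 3 (43.8% to 50.4%, 892 counts). In R8Q10 the A share was 56.3%, 53.4% and 55.0%, and the A8 copy was the larger in all 3 libraries. In SW it was 49.1%, 50.7% and 47.1%, so that R8Q10 and SW did not overlap. Their difference of 5.94 percentage points had an exact permutation p of 0.1, the smallest that 3 against 3 allows, and 0.6 after adjustment over 6 pairs.

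In YH25005 the libraries differed beyond counting error. The A8 copy took 43.3% of the FAE1 counts in replicate 1 (Wilson interval 42.7% to 43.9%), against 55.7% (55.0% to 56.3%) in replicate 2 and 56.8% (56.1% to 57.5%) in replicate 3. The interval of replicate 1 does not meet those of replicates 2 and 3, which overlap; they cover counting error only. In FPKM the A8 copy stood at 153 in replicates 1 and 2, and the C3 copy at 214 in replicate 1 and 130 in replicate 2. In TMM-scaled CPM both copies were higher in replicate 1 than in replicate 2. The A8 copy had 404 against 322 CPM and the C3 copy 529 against 257 CPM. A wider set was made of the genes with an A or C ID that were listed in all libraries. Over this set, by contrast, the A genome supplied 49.5% ± 0.184 of the counts in YH25005 (SD, n = 3). No such split was thus present over the set as a whole. The same share was 48.9% ± 0.461 for A28, 46.6% ± 0.456 for R8Q10 and 49.8% ± 0.125 for SW. R8Q10 was thus the line with the lowest A share over this set. In the FAE1 pair it was one with the A8 copy ahead in each library.

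**Figure D3:**
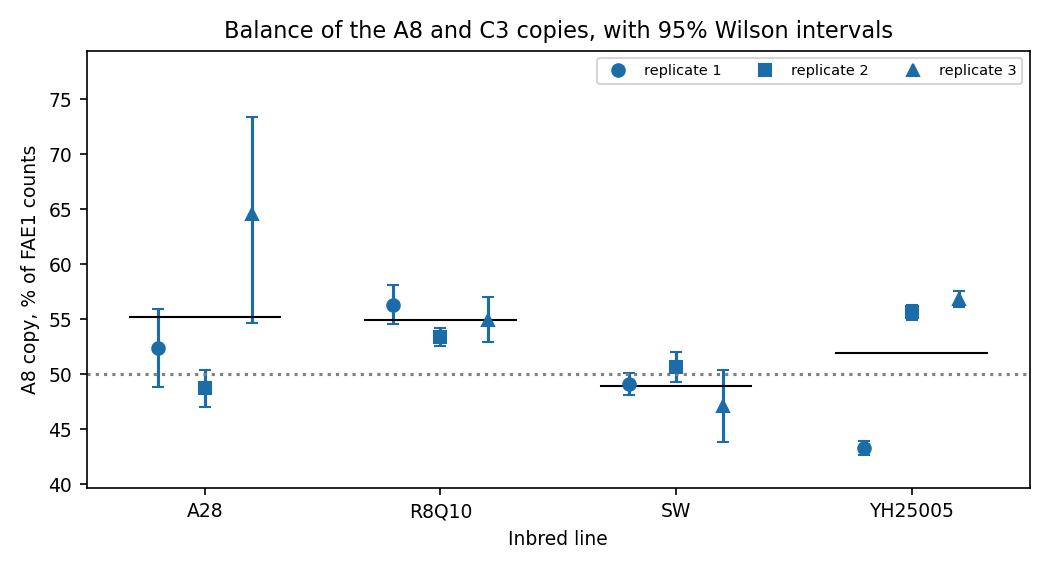
Percent of FAE1 counts that came from the A8 copy in each library, with 95% Wilson intervals for counting error; symbols mark the replicate, black bars the line mean and the dotted line equal shares. SW libraries lie between 47.1% and 50.7%, R8Q10 libraries between 53.4% and 56.3%, and YH25005 replicate 1 at 43.3% apart from the other YH25005 libraries.

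Although their balance varied, the copies varied together from library to library. Over the 12 libraries the Pearson correlation of log2 CPM between the copies was 0.993, and 0.986 after each line's mean was subtracted. These values are descriptions, since the copies share libraries and may share reads. In A28 and R8Q10 both copies were highest in replicate 2 and lowest in replicate 3, and in SW both were highest in replicate 1 and lowest in replicate 3. In YH25005 the orders differed, with the A8 copy highest in replicate 3 (419 CPM) and the C3 copy highest in replicate 1 (529 CPM).

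Other genes followed FAE1 closely. Over 12 libraries, 264 of 6590 genes averaging at least 32 CPM (4.01%) had a correlation of at least 0.9 with the FAE1 sum, and the median gene had 0.06. The 32 CPM mean was taken over all 12 libraries, so a gene could enter through high values in YH25005 alone. How many genes entered that way was not counted, and the 4.01% is a description only. The 5 most alike were BnaA06g29670D, BnaC09g41250D, BnaC06g22080D, BnaC08g17990D and BnaA03g27410D, with correlations from 0.983 to 0.985. The files do not pair these IDs with names. BnaC09g41250D was also the gene most like the A8 copy alone (0.986), and BnaA06g29670D the one most like the C3 copy alone (0.985).

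These genes were chosen for their likeness to FAE1 over the same libraries, so the order of lines they share with it is a description; the size of the steps differed. BnaC09g41250D and BnaC08g17990D reached the 32 CPM mean only through YH25005. BnaA06g29670D averaged 87.9 ± 135 CPM for A28, 548 ± 462 for R8Q10, 485 ± 350 for SW and 3093 ± 1001 for YH25005 (SD, n = 3 each). BnaC06g22080D moved far less, at 93.6 ± 38.7, 131 ± 22.1, 121 ± 28.2 and 200 ± 28.9 CPM in the same order of lines. BnaC09g41250D, by contrast, had 0.223, 3.79 and 0 CPM in A28 replicates 1, 2 and 3, against 144, 79.0 and 192 CPM in YH25005.

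**Figure D4:**
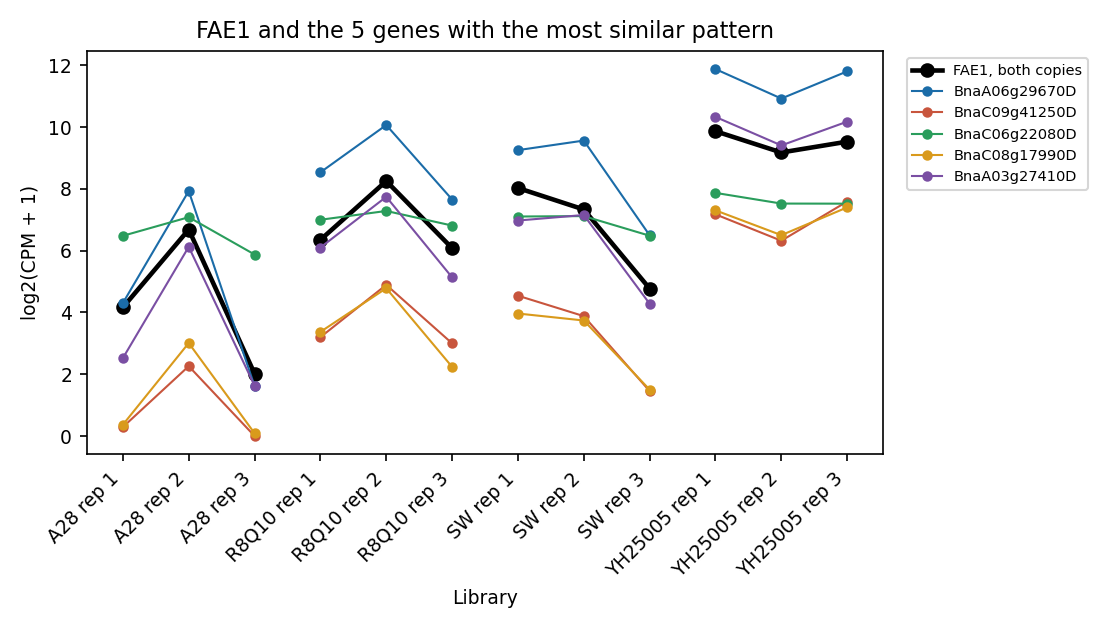
FAE1 summed over both copies (black) and the 5 genes with the most similar pattern (colours) as log2(CPM + 1) in 12 libraries, joined within each line. The 5 genes were chosen for this likeness; all 6 profiles are lowest in replicate 3 of A28, R8Q10 and SW, and all are higher in each YH25005 library than in any library of the other lines.

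The swings within lines had company too. With line means subtracted, 478 of 6590 genes (7.25%) had a correlation of at least 0.9 with FAE1, against a median of 0.04. This correlation pools the lines, and those with wider FAE1 spread weigh more. The SD of log2 CPM of the FAE1 sum was 2.52 in A28 and 0.34 in YH25005, so a high value need not hold in each line. BnaC09g41250D again came first (0.984), followed by BnaC09g06400D (0.982), BnaC09g41580D (0.978), BnaA07g31890D and BnaA07g13950D (both 0.977). BnaC09g06400D was also the gene most like the C3 copy within lines (0.986). It had 3.76, 40.9 and 0.762 CPM in A28 replicates 1, 2 and 3, where the FAE1 sum was 16.9, 102 and 3.05 CPM. Like BnaC09g41250D, it reached the 32 CPM mean only through YH25005, where it averaged 84.7 CPM. Its highest mean elsewhere was 30.4 CPM, for R8Q10. BnaC09g41580D averaged 46.1 ± 35.3 CPM for A28, 100 ± 40.2 for R8Q10, 55.8 ± 22.6 for SW and 97.9 ± 16.8 for YH25005 (SD, n = 3 each), so its mean in YH25005 did not exceed that in R8Q10.

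The share of all counts held by the 50 most abundant genes of each library was highest in YH25005, the line with the most FAE1. Within A28, R8Q10 and SW, by contrast, this share was lowest in the library with the most FAE1. It was 7.51%, 5.02% and 6.06% in A28 replicates 1, 2 and 3, and 9.0%, 6.54% and 8.39% in R8Q10. It was 6.78%, 9.13% and 8.71% in SW and 25.0%, 17.6% and 25.0% in YH25005. The library with the most FAE1 in A28, R8Q10 and SW was thus the one with the lowest share in its line, while in YH25005 replicate 2 had both the least FAE1 and the lowest share. The part of library composition in the FAE1 levels was not tested. In bulk RNA, fewer FAE1-expressing cells and less FAE1 RNA per cell cannot be told apart.

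The genes next to each copy did not share its pattern as a block. For each copy, 10 genes on either side in ID order were taken from those listed in all libraries. In A28 against YH25005, where both FAE1 copies passed, 3 of 20 neighbours of the A8 copy were higher and 3 lower in A28, and 3 of 20 neighbours of the C3 copy were higher and 2 lower (edgeR, adjusted p under the 0.05 threshold; of all genes 14.5% were higher and 12.7% lower). The median neighbour had a log2 fold change of 0.23 beside the A8 copy and 0.49 beside the C3 copy. No neighbour on either side had a change as large as that of the FAE1 copy it adjoins.

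The nearest listed genes varied over a smaller range of line means than FAE1. BnaA08g11080D, before the A8 copy, averaged 19.1 ± 5.92 CPM for A28, 9.34 ± 1.04 for R8Q10, 13.8 ± 3.89 for SW and 16.4 ± 3.98 for YH25005 (SD, n = 3 each). It passed in A28 against R8Q10 (log2 fold change 1.03; edgeR, adjusted p = 0.0242), a direction opposite to the estimate for FAE1. BnaA08g11150D, after the A8 copy, lay between 7.32 and 9.23 CPM in the line means and passed in no pair. BnaC03g65970D, before the C3 copy, was scarce, at 0.777 ± 0.725 CPM for A28, 0.937 ± 0.682 for R8Q10, 0.914 ± 0.279 for SW and 2.90 ± 1.57 for YH25005, and passed in no pair. BnaC03g66050D, after the C3 copy, passed in A28 against SW (log2 fold change 0.88; edgeR, adjusted p = 0.0403).

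4 further neighbours were chosen after their values had been seen. BnaA08g11030D, the fifth listed gene before the A8 copy, was lower in A28 than in YH25005 like FAE1 and averaged 0.872 ± 0.949 CPM in A28, against 8.49 ± 2.15 CPM in YH25005 (SD, n = 3 each; log2 fold change -3.27; edgeR, adjusted p = 0.0377). The fifth listed gene after each copy, BnaA08g11220D and BnaC03g66140D, went the other way. BnaA08g11220D averaged 20.4 ± 17.4 CPM in A28 and 2.21 ± 0.402 CPM in YH25005 (log2 fold change 3.20; edgeR, adjusted p = 0.00151), and BnaC03g66140D averaged 27.4 ± 21.3 CPM in A28 and 3.58 ± 1.01 CPM in YH25005 (log2 fold change 2.93; edgeR, adjusted p = 0.00131). BnaC03g65620D, 9 listed genes before the C3 copy, had 0 counts in all SW libraries and averaged 11.2 ± 1.14 CPM in A28, 10.6 ± 0.964 in R8Q10 and 7.58 ± 0.599 in YH25005, while the C3 copy of FAE1 itself was read at 8.55 to 84.5 FPKM in SW.

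**Figure D5:**
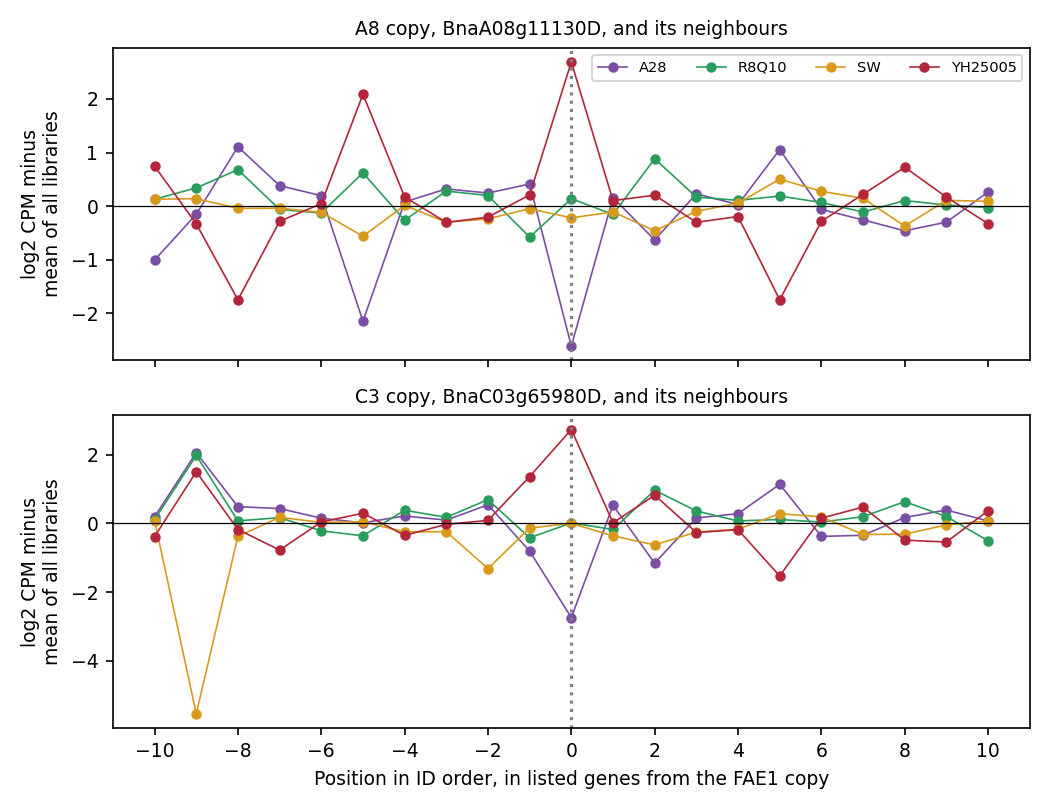
Mean log2 CPM of each line minus the mean of all 12 libraries for the A8 copy (top) and the C3 copy (bottom), both at position 0, and up to 10 listed genes on either side in ID order. YH25005 is highest and A28 lowest at position 0 in both panels, most neighbours lie near 0, and SW is lowest by far at position -9 of the lower panel, a gene with 0 counts in SW.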

How the data were processed

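Poly-A RNA from immature seeds was sequenced as read pairs, per the labels' protocols; the kit protocol says nothing of strand. HISAT2, bcl2fastq and DESeq2 are named in the submitters' processing notes without versions; for build, annotation and counting program: not given in the sources used here. The counts deposited by the authors are whole numbers per gene and library. The FPKM values deposited by the authors were used to compare the copies per length and to rank genes, and entered no test other than the length-corrected share.

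The libraries of A28 and R8Q10 share a list of 47207 genes and those of SW and YH25005 a list of 46839. Tests used the 43708 genes in both. A gene missing from a list was filtered, not measured as 0. Library size was the total over listed genes. Line was taken from sample titles.

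The count test was edgeR 4.0.16 under R 4.3.3 (TMM, filterByExpr, which removed none of these genes, quasi-likelihood fit of all 12 libraries, 1 coefficient per line), with Benjamini-Hochberg adjustment over all genes. The SE is the log2 fold change divided by the square root of F. For the sum, the rows of both copies were replaced by their total. Shares and levels were compared by exact permutation. The Wilson intervals of the A share cover counting error only, and reads without molecular identifiers are not independent molecules. The 95% intervals of log2 fold changes were built from the edgeR SE and include the spread between libraries. Log2 CPM for correlations used a prior count of 2. Named genes were the FAE1 copies, the nearest listed gene on each side, the 5 genes with the highest Pearson correlation over the libraries and within lines, and the first such gene for each copy; 4 further neighbours were added after their values had been seen. A RefSeq gene table (Da-Ae assembly) matched 2185 of 50338 IDs and neither FAE1 copy, so no coordinates or sequences are printed. The tests were tested on simulated data. Alternatives were other scalings, DESeq2 1.42.0, no filter, other sets of libraries, and a replicate block. The members, lists and tests were chosen with earlier results of these data known.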

Additional observations from a re-analysis of the deposited data

How the results depend on the processing

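FAE1 results moved with single libraries. Leaving out 1 at a time, the adjusted p over lines ran from 0.00571 to 0.0834 for the A8 copy, 0.00811 to 0.15 for the C3 copy and 0.00688 to 0.11 for the sum. In the same order, log2 fold changes ran from -6.12 to -3.70, -6.31 to -3.60 and -6.21 to -3.65 for A28 against YH25005, from -3.93 to -1.06, -3.93 to -0.70 and -3.94 to -0.89 for A28 against R8Q10, and from -3.80 to -1.22, -4.07 to -1.19 and -3.93 to -1.20 for A28 against SW. R8Q10 against SW changed sign (-0.86 to 0.80, -1.22 to 0.57, -1.03 to 0.69). Differences in A share changed sign for A28 minus R8Q10 (-4.35 to 3.58 percentage points), A28 minus YH25005 (-1.38 to 6.56) and R8Q10 minus YH25005 (-1.34 to 5.42).

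With library totals alone, the adjusted p over lines was 0.0589 for the A8 copy and 0.0726 for the sum; the median of all genes then lay at 0.47, 0.43 and 0.33 for A28, R8Q10 and SW against YH25005. DESeq2 gave the C3 copy 0.00218 over lines and called the A8 copy for SW against YH25005 (-2.35); the cause was not tested. Fitting the compared lines alone, A28 against YH25005 did not pass for the C3 copy (-4.16) or the sum (-4.20). R8Q10 against YH25005 then passed (A8 -2.20, C3 -2.38, sum -2.28), as did SW against YH25005 (A8 -2.32, sum -2.28; with their whole gene list -2.30 and -2.26). Exact permutation, added after seeing the data, gave 0.0319 for the C3 copy over lines, -5.31, -5.51 and -5.40 for A28 against YH25005 with a p that cannot pass, and a log2 difference of 0.013 for the C3 copy in R8Q10 against SW.

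Deviations of same-numbered libraries correlated from -0.298 to 0.581, over 0.1 in 8 of 18 pairs. Among pairs of lines, A28 and R8Q10 were over 0.1 for all 3 numbers (0.118, 0.581 and 0.432). With the block FAE1 did not pass there either (sum -2.42, adjusted p = 0.1 by edgeR). The other pairs of lines were not over 0.1 for all 3 numbers. A28 and SW had -0.130, 0.363 and 0.132, and R8Q10 and SW had -0.0894, 0.317 and 0.153. Whether same-numbered libraries share a batch was not tested. With the replicate block the C3 copy passed over lines (0.0126), as did the A8 copy and the sum for R8Q10 (-2.87, -2.95) and SW (-2.99, -2.96) against YH25005.

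Over all genes, 11892 calls for A28 against YH25005 moved to 7455 and 7550 without YH25005 replicates 1 and 3, and to 7884 with those lines alone. For R8Q10 against YH25005, 10217 calls moved to 6191 and 6288 without the same libraries and to 6638 and 6404 without R8Q10 replicates 1 and 3. Fitting the compared lines alone, 9463 calls moved to 6209 for A28 against R8Q10 and 6727 moved to 3849 for A28 against SW. By Spearman correlation 1 of the 5 genes most like FAE1 was again in the first 5, over the libraries and within lines, and with a 10 CPM minimum 5 and 2 were. In the fit of all 12 libraries the filter on low counts removed no gene, and comparisons of 3 against 3 by permutation cannot pass. Leaving both aside, 322 other combinations of result and setting kept direction and side of the threshold. A call was lost in 25 and gained in 24, while 7 changed sign and 3 changed the genes most like FAE1. The 322 include fits without a library of a line outside the pair, which moved that pair's log2 fold change little.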
